A study of Mus musculus with 4 samples.

Results

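The nuclear genes of the mitochondrial respiratory chain were examined in *Ebf1*-/- fetal liver cells infected with a control virus or with a virus carrying *Mir195*. They were chosen by name, as the non-control probes whose gene name begins with Nduf, with Sdh and a, b, c or d, with Uqcr, with Cox and a digit, or with Atp5. This gave 130 of the 39429 probes, for 97 genes, each represented by its brightest probe. The names sort the genes into complex I (Nduf, 42 genes), complex II (Sdh, 6), complex III (Uqcr, 7), complex IV (Cox, 26) and complex V (Atp5, 16). A gene was compared between the viruses only where its probe was well above background, as called by the scanner software, on both arrays of at least 1 virus. 93 of the 97 genes met this, and all 93 were well above background on all 4 arrays.

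Every sample lacked *Ebf1*, a transcription factor needed for commitment to the B cell lineage, in both groups alike. The cells were Lin- cells of mouse fetal liver, that is, cells from which those bearing markers of mature blood lineages had been removed. The 2 EMPTY samples were infected with the MDH1-PGK-GFP retrovirus without an insert, and the 2 miR-195 samples with the same vector carrying a genomic segment around *Mir195* amplified from RS4;11, a human leukaemia line. Both were cultured on OP9 stroma, a mouse marrow stromal line, with SCF, IL-7 and Flt3-ligand at 10 ng/mL each. No sorting of infected cells before RNA extraction is given in the sources used here, and nothing says whether the replicates came from separate embryos, so p-values measure only the spread between these samples.

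The respiratory chain passes electrons from NADH (complex I) and succinate (complex II) through ubiquinone and complex III to cytochrome c, and complex IV hands them to oxygen. Protons pumped on the way drive ATP synthase, complex V. Most subunits are encoded in the nucleus and a small set in mitochondrial DNA, so the complexes are assembled from both genomes with the help of dedicated assembly factors. Several complex IV subunits exist as a widely expressed isoform and an isoform restricted to muscle, testis, lung or brown fat. Progenitors of blood rely heavily on glycolysis, and use of the chain changes as they mature. Nuclear chain genes are known targets of the factors NRF1, GABPA, YY1 and ERRA.

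The virus delivers a microRNA of the miR-15/16 family, which pairs with messages through its seed, bases 2 to 8. The mouse mature sequence and those of family members are shown, from RefSeq on GRCm38.p6, to mark the shared seed in capitals; the sequence of the human insert was not used here. Mature miR-195a-5p lies at chr11:70235062-70235082 on the plus strand.
mmu-miR-195a-5p: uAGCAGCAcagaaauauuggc
mmu-miR-497a-5p: cAGCAGCAcacugugguuugua
mmu-miR-16-5p: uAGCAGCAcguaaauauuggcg

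Promoter windows, from 250 bases before to 50 after each start, were matched by symbol for 79 of the 97 genes (RefSeq, GRCm38.p6). They were searched on both strands for GCGCNTGCG for NRF1, CCGGAAGT for GABPA, AAGATGGC for YY1, AAGGTCA for ERRA and TATAAA for the TATA box. No searched motif contains another. At least 1 of the first 4 was found for 41 of the 79 genes, or 51.9%, against 18.2% of 27025 genes with a window of the same length. For NRF1 the share was 30.4% against 7.12%, for YY1 15.2% against 3.19%, for GABPA 10.1% against 4.31% and for ERRA 10.1% against 5.38%. Any of the 4 was found for 18 of 37 genes (48.6%) of complex I and 2 of 5 (40%) of complex II. For complexes III, IV and V it was 3 of 4 (75%), 5 of 18 (27.8%) and 13 of 15 (86.7%). With so few genes, above all in complexes II and III, these shares are loose. In complex IV, NRF1 was found for 1 of 18 genes (5.56%), near the share of all genes, and ERRA for 0, too few genes to set either apart. TATAAA was found for 10.1% of the members against 15.7% of all genes. Gene windows are listed once per start and were counted by gene, and a match is a description, not a bound site.

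Windows are printed for 4 genes, picked with the values described below known. They are *Cox8b*, which stood apart from all other members, its widely expressed partner *Cox8a*, *Ndufa11* and *Sdha*. *Ndufa11* was among the lowest of complex I, and *Sdha* stood near 0. Whether a motif goes with a difference between the viruses was not tested. Capitals mark the motifs. The *Cox8b* window (chr7:140900397-140900696, minus strand) held TATAAA and none of the other 4 motifs. The *Cox8a* window (chr19:7217567-7217866, minus strand) held 2 GABPA matches. The *Ndufa11* window (chr17:56717512-56717811, plus strand) held 2 overlapping NRF1 matches, 1 on each strand, and the *Sdha* window (chr13:74350191-74350490, minus strand) held 3 NRF1 matches.
Cox8b: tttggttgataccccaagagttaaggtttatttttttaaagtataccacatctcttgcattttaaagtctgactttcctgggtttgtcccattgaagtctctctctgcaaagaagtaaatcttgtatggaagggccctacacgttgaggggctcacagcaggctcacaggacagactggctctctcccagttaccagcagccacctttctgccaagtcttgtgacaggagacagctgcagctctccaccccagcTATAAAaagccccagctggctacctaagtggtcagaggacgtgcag
Cox8a: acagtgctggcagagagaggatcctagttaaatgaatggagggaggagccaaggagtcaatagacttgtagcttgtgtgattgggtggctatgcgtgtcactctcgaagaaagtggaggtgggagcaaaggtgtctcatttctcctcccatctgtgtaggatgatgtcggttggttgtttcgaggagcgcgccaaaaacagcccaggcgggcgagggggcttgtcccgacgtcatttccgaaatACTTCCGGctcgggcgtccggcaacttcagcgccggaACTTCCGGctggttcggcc
Ndufa11: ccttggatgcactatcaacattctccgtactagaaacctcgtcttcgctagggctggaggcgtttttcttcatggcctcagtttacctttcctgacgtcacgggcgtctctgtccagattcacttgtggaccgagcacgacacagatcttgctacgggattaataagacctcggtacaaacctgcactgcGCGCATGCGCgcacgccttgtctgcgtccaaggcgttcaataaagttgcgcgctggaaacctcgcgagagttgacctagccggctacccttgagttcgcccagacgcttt
Sdha: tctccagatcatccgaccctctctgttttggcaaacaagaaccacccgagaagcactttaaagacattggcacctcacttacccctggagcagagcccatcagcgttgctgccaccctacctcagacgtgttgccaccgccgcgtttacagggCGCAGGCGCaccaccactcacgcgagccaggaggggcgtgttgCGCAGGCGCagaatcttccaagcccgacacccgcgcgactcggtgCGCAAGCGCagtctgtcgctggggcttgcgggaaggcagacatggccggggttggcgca

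Levels are given as log2 of the background-subtracted intensity minus the 75th percentile of the same array, so 0 is the level of that percentile. Signals of 902 to 1127 stood at that percentile, no spot was saturated, and 23658 to 24671 probes per array were well above background. All 4 arrays lay on 1 slide, with the EMPTY samples in positions 1 and 2 and the miR-195 samples in positions 3 and 4, so position and virus cannot be told apart. The single *Ebf1* probe read 2.01 and 1.89 with EMPTY and 1.85 and 2.03 with miR-195. Whether it lies within the deleted part is not given in the sources used here, so it checks nothing, and no probe is named for *Mir195*. The cells were checked against their labels by marker genes. Of 7 progenitor markers, *Ptprc*, *Kit*, *Flt3*, *Il7r*, *Cd34* and *Myb* were well above background on all arrays and *Gata2* on none. OP9 stroma genes were present too: 6 of 10 were well above background on all 4 arrays, *Dcn*, *Lum* and *Postn* on none. The summed linear level of the stroma genes was 9.79 and 10.7 with EMPTY, and 9.42 and 17.3 with miR-195 replicates 1 and 2. These sums mostly followed the brightest gene, *Sparc*, at 2.51 and 2.63 with EMPTY and 2.47 and 3.41 with miR-195.

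No member passed the test between the viruses. In limma with Benjamini-Hochberg adjustment over all 23731 probes compared, 0 probes and 0 members were called at an adjusted p under 0.05 (0% of probes), and the lowest adjusted p was 0.10 over all probes and 0.53 over the members. Without adjustment, 1979 probes (8.34%) and 1 member, *Cox8b*, had a p under 0.05. The methods' t-test, on ratios of same-numbered replicates, passed 1134 probes and 1 member unadjusted and 0 after adjustment. Leaving out miR-195 replicate 1 gave 904 called probes and 1 called member, and leaving out miR-195 replicate 2 gave 3 and 0. With 2 against 2 samples an exact two-sided permutation test cannot go below p = 0.333.

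The members' values nevertheless lay to one side. 84 of 93 were lower and 9 higher with miR-195, with a median difference of -0.11 on the log2 scale, or 0.929-fold. Over all probes compared, 11142 were lower and 12589 higher, with a median of 0.013. Leaving out miR-195 replicate 2 turned the members' median to 0.027, with 29.0% of members lower, so the side on which they lay rested on that array. Without EMPTY replicate 2 the median was -0.021, with 54.8% lower. The median difference over all probes was 0.035 and 0.039 in the same comparisons.

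**Figure D1:**
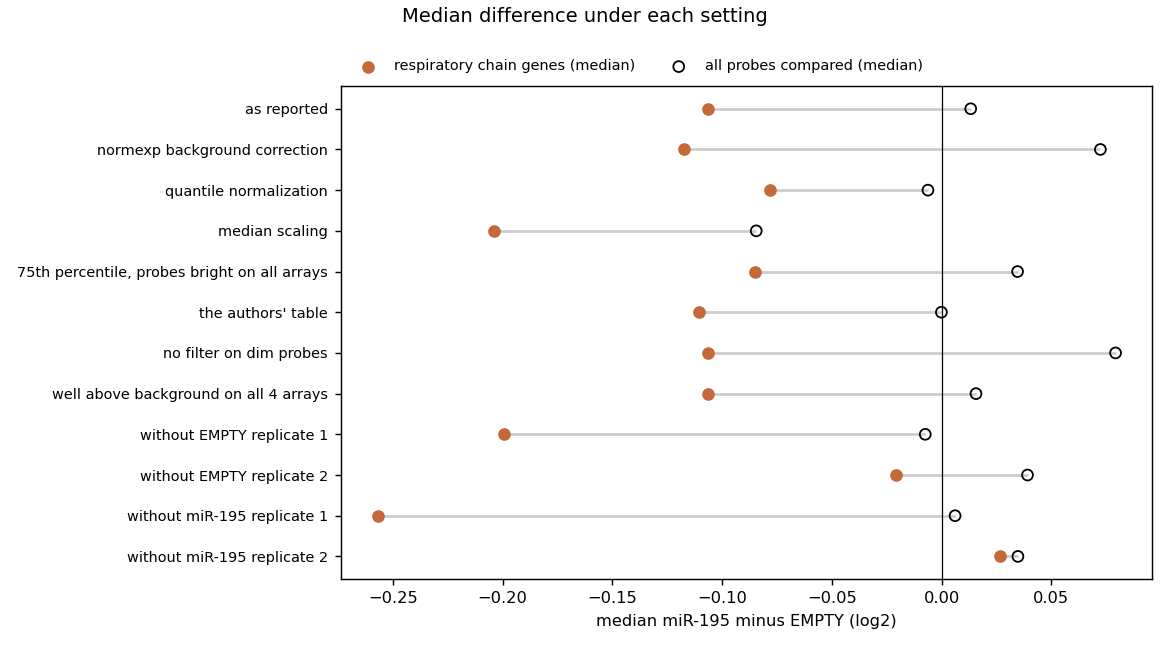
Median miR-195 minus EMPTY difference (log2, horizontal axis) of the respiratory chain genes (filled points) and of all probes compared (open circles) under each setting (rows). The members' median is -0.11 as reported and changes sign to 0.027 without miR-195 replicate 2.

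The groups overlapped for most members. Only 9 members (9.68%) were lower on both miR-195 arrays than on both EMPTY arrays, against 14.4% of all probes compared, and 2 (*Sdha* and *Ndufs1*) were higher on both, against 23.4%. The share of members separated by virus was thus no larger than that of the array as a whole. Members other than *Cox8b* differed by -0.26 to 0.090, with standard errors of 0.11 to 0.20 and adjusted p from 0.80 to 0.999. The 95% intervals of these 92 members all lay within a 2-fold change, from a lowest bound of -0.72 to a highest of 0.52.

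A second pattern was shared by the members and ran across the virus groups. EMPTY replicate 2 gave the highest level for 78 of 93 members and miR-195 replicate 2 the lowest for 80, and both held for 71. Taken against each gene's mean over the 4 arrays, the members had a median deviation of -0.037 on EMPTY replicate 1, 0.15 on EMPTY replicate 2, 0.074 on miR-195 replicate 1 and -0.20 on miR-195 replicate 2. The step between the EMPTY replicates (median 0.18) and between the miR-195 replicates (median -0.28) was thus larger than the step between the viruses. Among all probes compared, miR-195 replicate 2 was lowest for 34.0% and EMPTY replicate 2 highest for 26.1%.

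Most members were bright, with 78 of 93 among the brightest 25% of the probes compared. Among those probes the same order was seen more weakly: miR-195 replicate 2 was lowest for 56.1% and EMPTY replicate 2 highest for 42.7%, and the median difference was -0.032. In the dimmest 25% the median difference was 0.085. The OP9 stroma markers moved the other way on the same array, with a median deviation of 0.57 on miR-195 replicate 2 against -0.31 to -0.096 on the other arrays. Within them *Col3a1*, *Cxcl12* and *Sparc* read -2.18, 1.35 and 3.41 on miR-195 replicate 2, above -3.25 to -2.97, 0.34 to 0.48 and 2.47 to 2.63 elsewhere. Its part in the members' levels was not tested. In such bulk RNA, fewer cells of a type and less RNA per cell cannot be told apart.

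**Figure D2:**
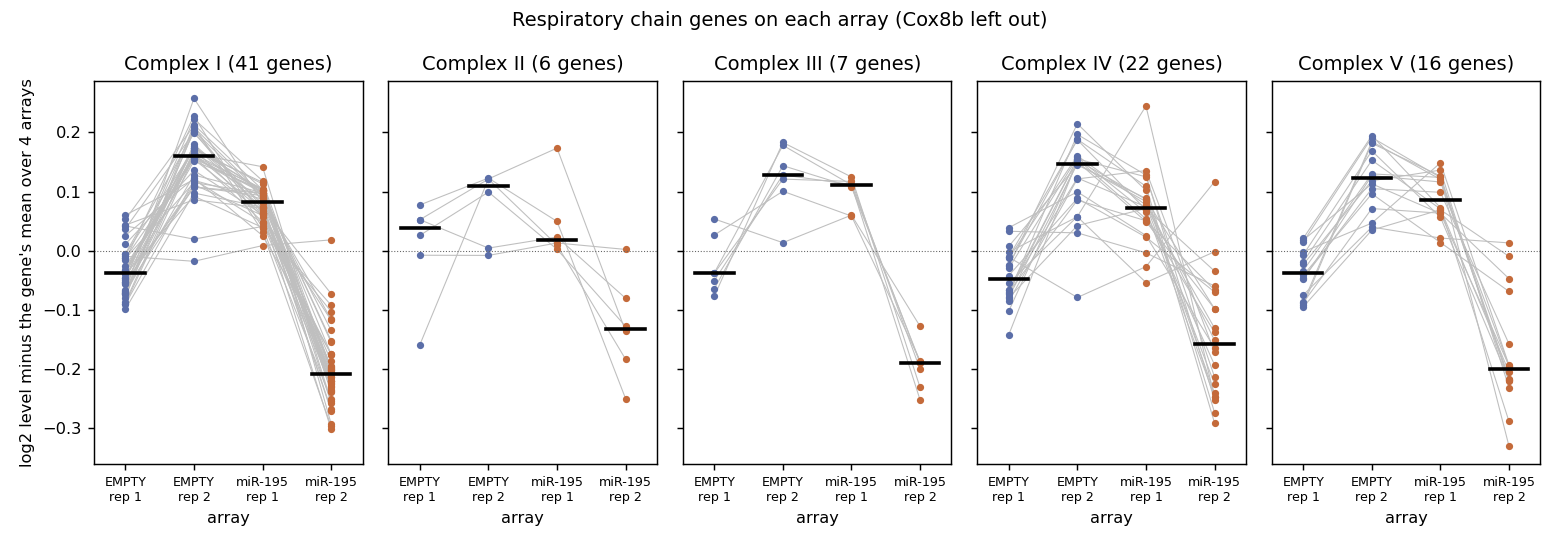
Level of each compared member on each array, as log2 level minus the gene's mean over the 4 arrays (vertical axis), by complex; lines join the values of a gene and black bars are medians. *Cox8b* is left out; in most genes EMPTY replicate 2 is highest and miR-195 replicate 2 lowest, a pattern across rather than between the viruses.

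Complex I, NADH dehydrogenase, is the largest of the 5 complexes. Of its 42 genes 41 were compared, 39 lower and 2 higher, with a median of -0.13 and 0 called. Without miR-195 replicate 2 the count lower was 12 and the median 0.027. The core subunits carry the flavin, the iron-sulphur clusters and the quinone site. *Ndufs1*, the subunit with several of those clusters, read 3.74 and 3.73 with EMPTY and 3.75 and 3.76 with miR-195. Its groups did not overlap, but they differed by only 0.027 ± 0.11 (SE, n = 2 a virus). Among other core genes, *Ndufs8* differed by -0.14, *Ndufv1*, which binds NADH and the flavin, by -0.11, *Ndufs7* by -0.093, *Ndufv2* by -0.057 and *Ndufs3* by -0.042.

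All 30 accessory subunits of complex I were lower, by 0.029 to 0.26 and with a median of -0.13. These subunits surround the core and are needed for its assembly and stability. *Ndufa1*, a small membrane subunit, had the lowest value of the complex. It read 4.92 and 5.07 with EMPTY and 4.90 and 4.57 with miR-195, a difference of -0.26 ± 0.16 (limma adjusted p = 0.80). miR-195 replicate 1 lay just under EMPTY replicate 1, and replicate 2 carried most of the difference. *Ndufa11* followed with 2.23 and 2.39 against 2.25 and 1.89, a difference of -0.24 ± 0.17, and its groups overlapped. On every one of these 30 genes EMPTY replicate 2 was the highest array and miR-195 replicate 2 the lowest.

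*Ndufa4*, named as a complex I subunit and now assigned to complex IV, is among the 3 members that the study lists as predicted mouse targets of miR-195. It read 3.67 and 4.00 with EMPTY and 3.82 and 3.47 with miR-195, a difference of -0.19 ± 0.19. *Cox7a2* read 4.39 and 4.60 against 4.52 and 4.14, a difference of -0.16 ± 0.18. *Cox11*, which delivers copper to complex IV, read 0.94 and 1.17 against 1.06 and 0.87, a difference of -0.084 ± 0.15. The groups overlapped for each of the 3 predicted targets, and none passed the test (limma adjusted p = 0.89 to 0.94).

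Assembly factors of complex I are not part of the finished enzyme. *Ndufaf1* was at 0.0012 ± 0.14, from 1.64 and 1.84 against 1.81 and 1.67. *Ndufaf3* was lower on both miR-195 arrays (0.84 and 0.56) than on both EMPTY arrays (0.85 and 0.91), by little on the first of them. Over the 13 assembly factors of all complexes, 12 were compared and 10 were lower, with a median of -0.060. For the 72 widely expressed subunits the count lower was 67 and the median -0.12.

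Complex II, succinate dehydrogenase, also belongs to the tricarboxylic acid cycle and is encoded wholly in the nucleus. None of its 4 subunits passed the test. *Sdha*, the flavin subunit, read 4.17 and 4.17 with EMPTY and 4.19 and 4.18 with miR-195, a difference of 0.015 ± 0.11. *Sdhb*, the iron-sulphur subunit, read 5.71 and 5.99 against 6.04 and 5.73, a difference of 0.038 ± 0.18. The catalytic pair thus showed differences well under their errors, and both turned negative under scaling to the median (-0.082 and -0.060).

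*Sdhc* and *Sdhd* encode the membrane anchors of complex II. *Sdhc* had 2.91 and 2.95 with EMPTY and 2.88 and 2.58 with miR-195, a difference of -0.20 ± 0.15. *Sdhd* had 4.40 and 4.47 against 4.35 and 4.16, a difference of -0.17 ± 0.13. In both genes every miR-195 value lay under every EMPTY value, but the first miR-195 replicate was close to the EMPTY range and neither passed the test (limma adjusted p = 0.83 and 0.84). Without miR-195 replicate 2 they were at -0.050 and -0.077. Unlike most members, *Sdha* kept nearly 1 level on all 4 arrays, a span of 4.17 to 4.19. The factors *Sdhaf1* and *Sdhaf2*, which help insert the iron-sulphur clusters and the flavin, differed by -0.13 and -0.057.

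Complex III passes electrons from ubiquinol to cytochrome c. All 7 genes were lower, by 0.067 to 0.14, with a median of -0.083, and in none were the groups separated. Leaving out miR-195 replicate 2 left 1 of the 7 lower, with a median of 0.068. *Uqcrfs1*, the Rieske iron-sulphur protein, read 4.01 and 4.08 with EMPTY and 4.04 and 3.80 with miR-195, a difference of -0.13 ± 0.14. The core proteins *Uqcrc1* and *Uqcrc2* differed by -0.083 ± 0.16 and -0.067 ± 0.13. *Uqcrq*, a ubiquinone-binding subunit, was lowest at -0.14 ± 0.18, and *Uqcrh*, the hinge protein, was at -0.078 ± 0.16.

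Complex IV, cytochrome c oxidase, held the member that stood apart. 23 of its 26 genes were compared, 21 lower and 2 higher, with a median of -0.068. Without miR-195 replicate 2, 6 of the 23 were lower and the median was 0.018, and without EMPTY replicate 2, 10 were lower and the median was again 0.018. *Cox8b* encodes the isoform of subunit VIII known from heart, skeletal muscle and brown fat. It read -1.12 and -1.65 with EMPTY and -2.73 and -2.83 with miR-195. The groups were separated by more than the spread within either, and the difference was -1.39 ± 0.21, or 0.381-fold, with a 95% interval of -1.94 to -0.85. Its unadjusted limma p was 0.0014 and its adjusted p 0.53. Without miR-195 replicate 1, *Cox8b* was at -1.45 and its limma adjusted p was 0.033, where 904 probes were called in all. Under the other settings it lay between -1.66 and -0.997, always negative.

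The partner of *Cox8b* did not follow it. *Cox8a*, the widely expressed subunit VIII, read 6.74 and 6.94 with EMPTY and 6.96 and 6.65 with miR-195, a difference of -0.036 ± 0.17. The third isoform, *Cox8c*, known from testis, was among the members not compared. Because OP9 cells can form fat and *Cox8b* is a brown fat gene, adipocyte markers were read beside it, a list chosen after the values were seen. Of 13 such genes 7 were compared, 5 higher and 2 lower, with a median of 0.064, and *Ucp1*, *Cidea*, *Cidec*, *Plin1* and *Lep* were not well above background on any array. The 2 lower genes were *Adipoq* and *Fabp4*, both lower on both miR-195 arrays. *Adipoq* read -5.22 and -4.87 with EMPTY and -5.30 and -5.55 with miR-195, and *Fabp4* -4.29 and -4.28 against -4.33 and -4.40. *Retn* went the other way, at -4.74 and -4.63 against -4.49 and -4.01, higher on both miR-195 arrays. *Pparg* and *Plin4* were higher as well, by 0.16 and 0.064. The summed linear level of the 13 was 1.16 and 1.23 with EMPTY and 1.22 and 1.41 with miR-195. The brightest of them were *Cebpa*, at -0.95 and -0.89 against -0.72 and -1.08, and *Lpl*, at -1.66 and -1.59 against -1.87 and -0.94, and neither is restricted to fat. The part of adipocytes in the *Cox8b* level was not tested.

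**Figure D3:**
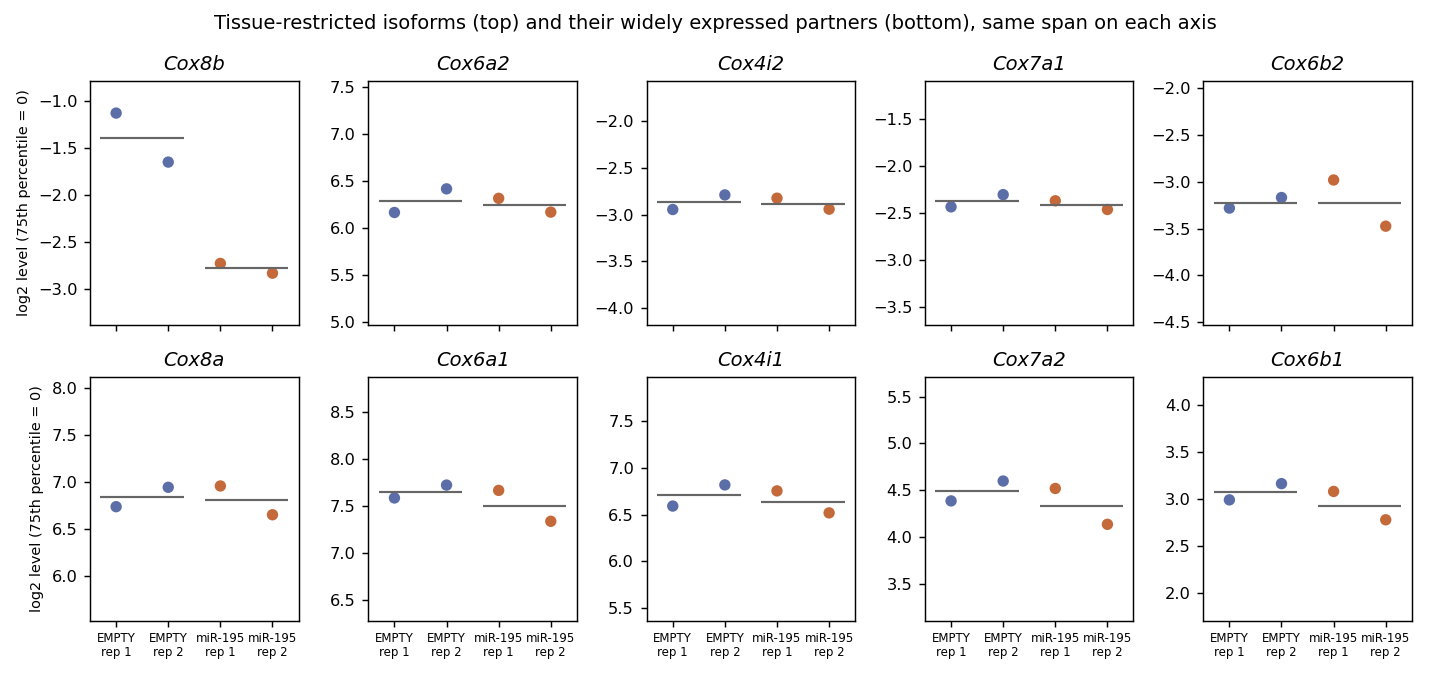
Level on each array (log2, 75th percentile of the array at 0) of 5 tissue-restricted complex IV isoforms (top) and their widely expressed partners (bottom); points are arrays, lines the mean of each virus, and every axis spans the same range. *Cox8b* reads -1.12 and -1.65 with EMPTY and -2.73 and -2.83 with miR-195, and no other panel shows groups that are apart.

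The other tissue-restricted isoforms of complex IV showed no such step. *Cox6a2*, the heart and skeletal muscle form of subunit VIa, read 6.16 and 6.42 with EMPTY and 6.32 and 6.17 with miR-195, a difference of -0.049 ± 0.15. Its probe was thus bright in these cells, although the gene is grouped here as tissue-restricted. The EMPTY means of *Cox4i2*, *Cox7a1* and *Cox6b2* were -2.87, -2.37 and -3.23. *Cox4i2*, the lung form of subunit IV, *Cox7a1*, a muscle form of subunit VIIa, and *Cox6b2*, a testis form, differed by -0.016 ± 0.13, -0.047 ± 0.12 and -0.0030 ± 0.20. Their partners were *Cox6a1* at -0.15 ± 0.16, *Cox4i1* at -0.068 ± 0.15, *Cox7a2* as above and *Cox6b1* at -0.15 ± 0.16. In each of these genes the groups overlapped. *Cox7b* was at -0.12 ± 0.19, while its testis form *Cox7b2* was not compared.

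Of the remaining named subunits, *Cox5a* and *Cox5b*, nuclear subunits attached to the catalytic core, were at -0.056 ± 0.14 and -0.18 ± 0.17. *Cox7c* was the second lowest of the complex, with 4.03 and 4.27 against 4.15 and 3.76, or -0.19 ± 0.19. The 2 complex IV genes higher with miR-195 were *Cox15*, which makes the haem of the enzyme, at 0.090 ± 0.12, and *Cox7a2l*, which joins complexes III and IV, at 0.037 ± 0.12. *Cox15* was the highest of all members and read -0.044 and -0.11 with EMPTY and -0.060 and 0.083 with miR-195. Both turned negative under scaling to the median, at -0.0079 and -0.061.

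4 members were not compared. *Cox17*, a copper chaperone of complex IV, *Cox7b2* and *Cox8c* were well above background on no array, and *Ndufa4l2*, a paralogue of *Ndufa4* known to be induced by hypoxia, only on EMPTY replicate 2. The dimmest probes called above background stood at -6.51 to -6.13 on the 4 arrays. *Cox7b2* and *Cox8c* read -8.66 to -8.17, under that level on every array, *Cox17* -7.90 to -6.58 and *Ndufa4l2* -8.36 to -5.99, and these values have no order. *Atp5g1*, a c-ring gene, has no probe under that name on the array. Besides the 13 assembly factors, 4 of the names do not mark subunits: *Cox4nb* (now *Emc8*) is a neighbour of *Cox4i1*, *Atp5s* and *Atp5sl* (now *Dmac2l* and *Dmac2*) are related to assembly or coupling, and *Cox7a2l* is described above. The first 3 differed by -0.13, -0.055 and 0.016.

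Complex V, ATP synthase, had 16 genes, 13 lower and 3 higher, with a median of -0.093. In none of the 16 were the groups separated. *Atp5b*, the catalytic beta subunit, had the highest value of the complex, with 6.87 and 7.004 with EMPTY and 7.04 and 6.96 with miR-195, a difference of 0.060 ± 0.12. *Atp5a1*, the alpha subunit, read 5.66 and 5.78 against 5.76 and 5.75, a difference of 0.035 ± 0.12. Both became negative under scaling to the median (-0.038 and -0.063). *Atp5c1*, the gamma subunit of the rotor, was at -0.059 ± 0.15.

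No complex V gene passed the test. *Atp5j*, coupling factor 6 of the stalk, read 4.48 and 4.65 with EMPTY and 4.53 and 4.17 with miR-195, a difference of -0.22 ± 0.17, the lowest of the complex. *Atp5o*, which joins the stalk to the catalytic head, read 3.65 and 3.83 against 3.76 and 3.31, a difference of -0.21 ± 0.19. In both, the first miR-195 replicate lay between the EMPTY values. The c-ring genes *Atp5g2* and *Atp5g3* differed by -0.096 ± 0.17 and -0.095 ± 0.17, and these genes encode the same mature protein from different precursors. Without miR-195 replicate 2, 4 of the 16 genes were lower, and *Atp5o*, *Atp5g2* and *Atp5g3* were at 0.021, 0.076 and 0.089.

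**Figure D4:**
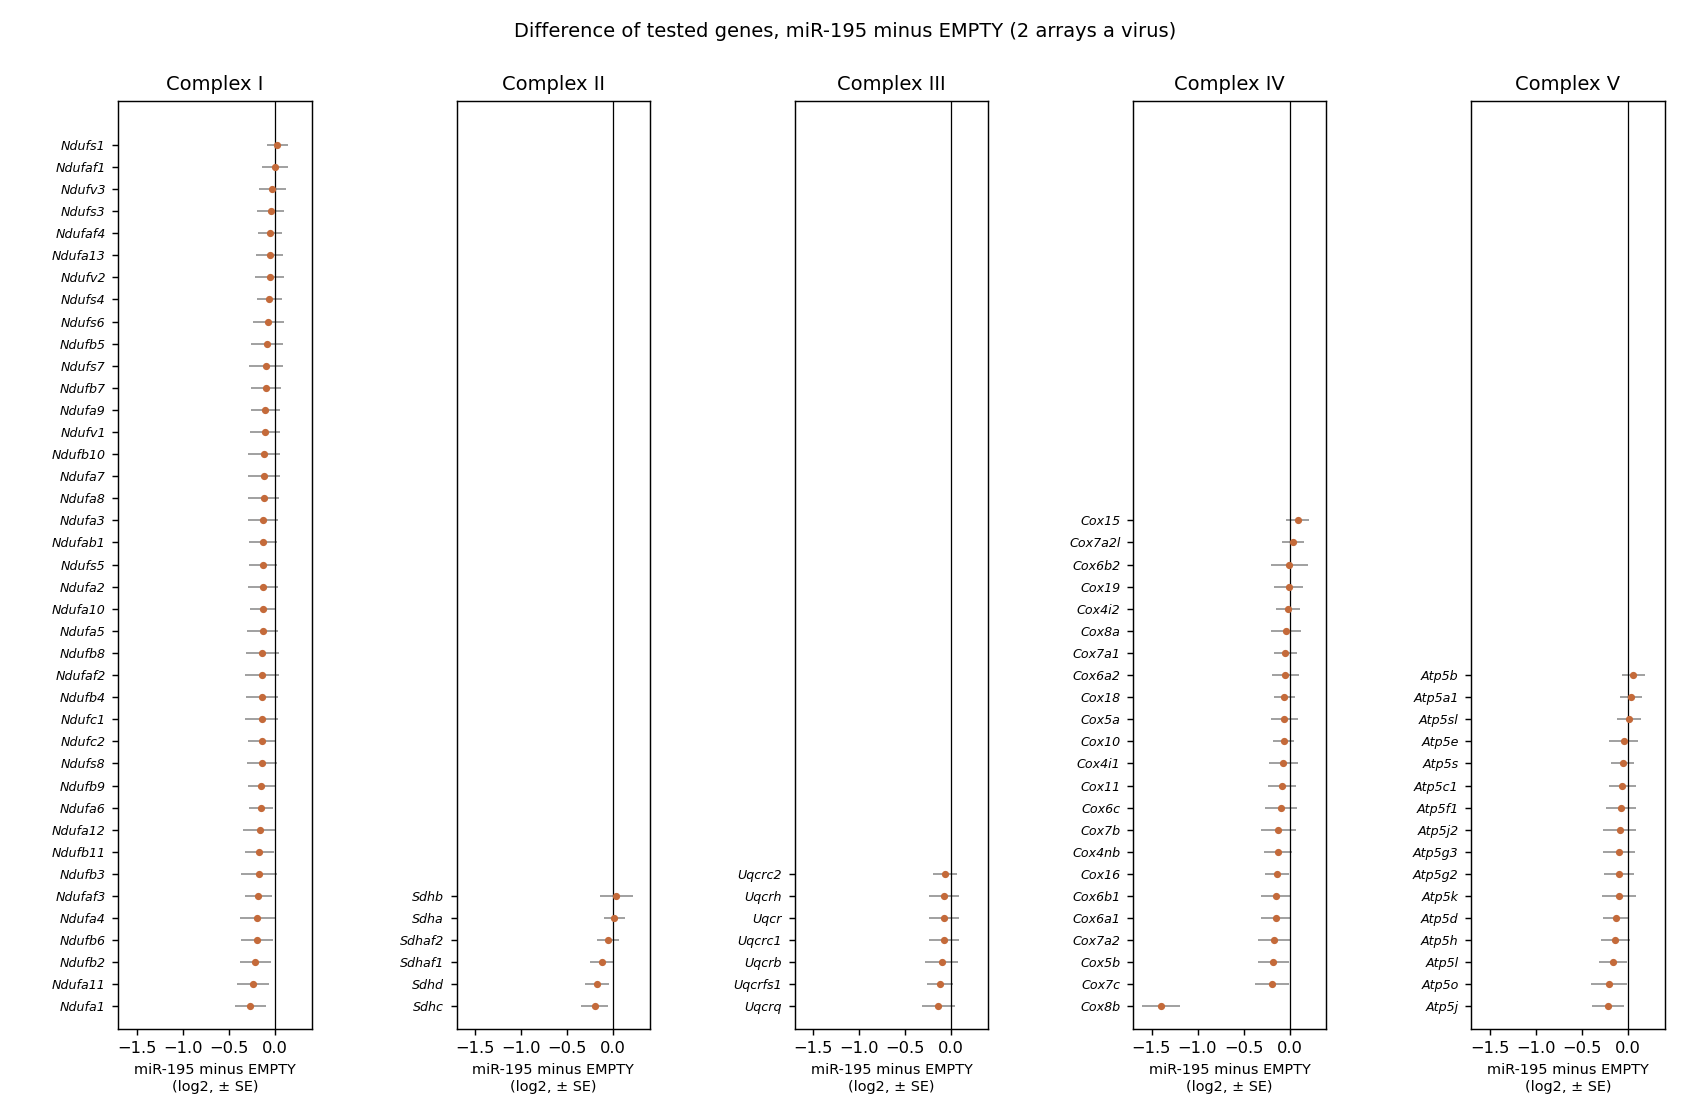
Difference miR-195 minus EMPTY (log2, horizontal axis; bars are ± 1 SE of limma, 2 arrays a virus) for the compared members, sorted within complexes I to V, of which not all are shown. The members shown, apart from *Cox8b*, lie between -0.26 and 0.090, and *Cox8b* lies at -1.39.

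Probes of the same gene mostly had the same sign. 25 genes had more than 1 compared probe, and for 20 of them all probes had 1 sign. The exceptions were *Cox16*, *Cox7a2l*, *Ndufaf4*, *Ndufb5* and *Sdhb*. *Cox16* ranged most, from -0.14 for its brightest probe to 0.56 for a dimmer one. That dimmer probe was higher on both miR-195 arrays, with a 95% interval of 0.21 to 0.92. Its unadjusted limma p was 0.010 and its adjusted p 0.53. The counts and bounds by gene given above rest on the brightest probe alone. Over all 125 compared probes of the members, 112 were lower with miR-195.

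The list of 12 mitochondrially encoded subunits of the same enzymes, which lacks *ATP6*, was read beside the nuclear ones. The rule left out *COX1*, *COX2* and *COX3* because the array names them in capitals, and the others because their names begin otherwise. 10 of the 12 were higher with miR-195 and 2 lower, with a median of 0.050. *COX2*, of complex IV, read 7.61 and 7.77 with EMPTY and 7.91 and 7.79 with miR-195, a difference of 0.16 ± 0.13, and *COX1* 7.93 and 8.09 against 8.17 and 8.08, a difference of 0.12 ± 0.13. *CYTB* of complex III was at -0.036 ± 0.14, and none of the 12 passed the test. The median of the list was 0.15 without miR-195 replicate 2, -0.030 without miR-195 replicate 1 and -0.048 under scaling to the median, so its sign changed with both.

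Other chain genes outside the names were read as well. Of 18, among them *Cycs* and *Cyc1*, cytochromes c and c1, and the assembly factors *Surf1*, *Sco1* and *Bcs1l*, 7 were higher and 11 lower, with a median of -0.031, which turned to 0.086 without miR-195 replicate 2 and 0.053 without EMPTY replicate 2. *Cyc1* was at -0.051 and *Cycs* at -0.019. *Atpaf1*, counted among the higher, was compared only through the miR-195 arrays, so its higher reading is not taken as a result. It read -6.45 and -6.02 with EMPTY and -5.95 and -6.09 with miR-195, at the edge of detection. Of the 18, 1 (5.56%) was lower on both miR-195 arrays, against 14.4% of all probes compared. That gene was *Surf1*, at -0.17 ± 0.12. Another 4 (22.2%) were higher on both, against 23.4%, among them *Ttc19*, a complex III factor, at 0.22 ± 0.13. None of the 18 was called.

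Regulators of mitochondrial biogenesis were also read. *Ppargc1a*, the coactivator PGC-1alpha, read -5.87 and -6.19 with EMPTY, well above background on both arrays, and -7.71 and -7.04 with miR-195, on neither. It was compared only through the EMPTY arrays, so its lower reading with miR-195 is not taken as a result. Counting the dim arrays at the lowest level called above background gave only a lower bound, of 1.11-fold. The limma adjusted p of the measured values was 0.53. On miR-195 replicate 2 that lowest level was -6.13, above the reading of EMPTY replicate 2. The signal of *Ppargc1a* lay at the edge of detection, so no firm fold can be given. The factors *Nrf1*, *Gabpa*, *Yy1*, *Esrra* and *Tfam* differed by 0.038, -0.051, -0.082, 0.025 and -0.00058. Over the 17 regulators 12 were higher and 5 lower, with a median of 0.038, which was -0.060 under scaling to the median, and 0 called.

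Of 16 tricarboxylic acid cycle genes 9 were higher and 7 lower, with a median of 0.016, which was -0.082 under scaling to the median and -0.079 without miR-195 replicate 1. Glycolysis genes lay closer to the nuclear chain genes, with 16 of 21 lower and a median of -0.10, which was -0.0059 without miR-195 replicate 2, and 0 were called. On the arrays, miR-195 replicate 2 was lowest for 16 of 21 (76.2%, against 86.0% of members) and EMPTY replicate 2 highest for 8 (38.1%, against 83.9% of members). *Slc16a3*, the lactate exporter MCT4, was lower on both miR-195 arrays, at -1.75 and -1.84 against -1.46 and -1.46, or -0.33 ± 0.12 (limma adjusted p = 0.56). *Gapdh* read 7.66 and 7.82 against 7.85 and 7.51.

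Markers of other cell types were read in the same way. Of 5 erythroid genes compared 4 were lower, with a median of -0.27, and the defining markers *Alas2* and *Klf1* were well above background on no array. *Epor*, counted among the lower and in that median, read -3.35 and -3.25 with EMPTY and -3.26 and -7.93 with miR-195. It was compared only through the EMPTY arrays, so its lower reading is not taken as a result. The summed linear level of the erythroid markers was 2.98 and 3.97 with EMPTY and 3.96 and 2.42 with miR-195. These sums mostly followed *Hbb-b1*, the brightest of them on every array. For 7 of 9 myeloid markers, 6 were higher, with a median of 0.32, sums of 11.1 and 13.4 against 13.9 and 13.9, and *S100a8* and *S100a9* were not well above background on any array. Of the mast and basophil markers *Cpa3* was at -0.65 and *Gzmb* at 0.072, with sums of 3.08 and 1.17 against 1.73 and 1.92. *Gzmb*, the brightest of them on every array, read 1.48 and -0.23 with EMPTY and 0.59 and 0.81 with miR-195. The sums thus mostly followed *Gzmb*, and *Mcpt8*, *Fcer1a* and *Ms4a2* were likewise not well above background. The progenitor sums were 105 and 115 against 121 and 117. None of these genes was called, and their part in the members' levels was not tested.

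**Figure D5:**
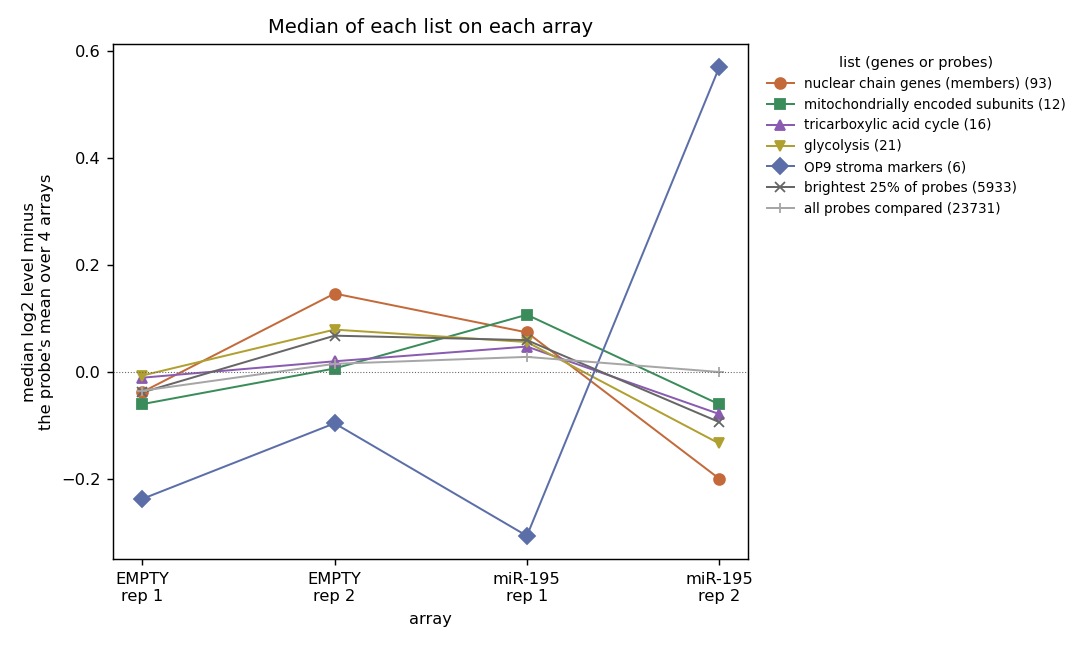
Median over each list of the log2 level minus the probe's mean over the 4 arrays (vertical axis), on each array (horizontal axis); lines only join the points of a list. The nuclear chain genes run from 0.15 on EMPTY replicate 2 to -0.20 on miR-195 replicate 2, where the OP9 stroma markers are at 0.57.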

How the data were processed

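RNA of 4 samples was hybridised to Agilent Whole Mouse Genome arrays with 1 dye. The authors deposited, for each spot, the scanner software's background-subtracted intensity, and a table of log2 values per probe. The file headers name Feature Extraction 9.1.3.1 and the submitters' processing notes 11.5.1.1. The columns of the deposited log2 table have medians of -4.45 to -4.29 and 75th percentiles of about 0, and they follow the intensity values with r = 0.998, so their scale and centring are known. Groups were taken from the sample titles and source names.

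The log2 intensity was averaged over the spots of a probe, without outlier spots, and the 75th percentile over 39429 probes was subtracted from each array. A probe was called well above background where over 0.5 of its spots were. Probes so called on both arrays of a virus were compared, except 70 that an outlier spot removed on an array, which left 23731. Differences were fitted in limma (version 3.58.1, R version 4.3.3, with data.table version 1.17.8 to read files) by lmFit and eBayes, with 2 residual degrees of freedom, and p-values were adjusted over all probes compared. The fit was tested on simulated data with known changes, in 5 rounds with 200 changed probes. It called 53.4% of 2-fold and 97.6% of 4-fold changes, with a mean of 16.6 false calls, so a 2-fold change could often be missed.

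The members and the lists were chosen with earlier results of these data known. Named were the succinate dehydrogenase subunits, the 2 highest and 2 lowest of each other complex, members not above background, isoform sets, predicted targets and catalytic or cofactor-bearing subunits; other genes were named after their values were seen. Some genes these rules cover are not reported here. Current symbols came from accessions in the GRCm38.p6 annotation for 96 of 97 genes, 5 of which differ. The alternatives were normexp (offset 50), and quantile, median and restricted percentile scaling, the deposited table, other filters on dim probes, trended and robust eBayes, a replicate block, leaving out each array, averaging a gene's probes and the methods' t-test.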

Additional observations from a re-analysis of the deposited data

How the results depend on the processing

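The 2 arrays a virus, on 1 slide, limit every comparison, and the members' SE of 0.11 to 0.20 exceeds most of their differences. No member was called under any setting except *Cox8b* without miR-195 replicate 1. Over all probes, 3 were called under median scaling, 5 with the replicate block, and 0 to 904 when an array was left out (904 without miR-195 replicate 1, 3 without miR-195 replicate 2), against 0 as reported; among the members 0 to 1 were called without an array. The share of members lower was 29.0% to 96.8% and their median -0.26 to 0.027 without an array, and -0.20 to -0.078 under the other settings, where 87.1% to 100% were lower. The median over all probes was -0.084 under median scaling and 0.079 without a filter on dim probes.

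The replicate numbers are not said to mark a pairing. With the replicate block 5 probes and 0 members were called and *Cox8b* had an adjusted p of 0.11. The deviations of same-numbered samples correlated at r = -0.10 across probes, and the crossed pairing, chosen after the data were seen, called 0 probes and 0 members. The restriction to widely expressed subunits and the adipocyte list were also chosen afterwards, and the former gave a median of -0.12.

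The lists moved as follows. Under median scaling the medians were -0.048 for the mitochondrially encoded subunits, -0.060 for the regulators and -0.082 for the tricarboxylic acid cycle. Without an array they ranged from -0.030 to 0.15 for the mitochondrially encoded subunits and from -0.079 to 0.050 for the tricarboxylic acid cycle.

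Of 645 values of the 43 named genes under alternative settings, 68 changed sign, none of them called. The cause was not tested. Under normexp these were *Sdha* -0.041, *Cox4i2* 0.078, *Cox6b2* 0.12 and *Cox7a1* 0.0071. Under median scaling they were *Sdha* -0.082, *Sdhb* -0.060, *Cox7a2l* -0.061, *Ndufs1* -0.071, *Atp5a1* -0.063, *Atp5b* -0.038, *Ndufaf1* -0.10 and *Cox15* -0.0079. In the authors' table they were *Sdha* -0.048, *Cox7a2l* -0.012, *Ndufs1* -0.0050 and *Ndufaf1* -0.0048. With the percentile over probes bright on all arrays they were *Cox4i2* 0.0058 and *Cox6b2* 0.018, with averaged probes *Cox7a2l* -0.020, and with quantile normalization *Atp5c1* 0.010.

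Leaving out each array gave these ranges, mostly with a change of sign without miR-195 replicate 2. In complexes I and II they were *Ndufs3* -0.16 to 0.072, *Ndufs7* -0.28 to 0.10, *Ndufs8* -0.29 to 0.00082, *Ndufv1* -0.24 to 0.027, *Ndufv2* -0.18 to 0.070, *Ndufaf1* -0.10 to 0.10 and *Sdhb* -0.12 to 0.19. In complex III they were *Uqcrc1* -0.24 to 0.076, *Uqcrc2* -0.16 to 0.027, *Uqcrh* -0.23 to 0.073 and *Uqcrq* -0.32 to 0.041. In complex IV they were *Cox4i1* -0.19 to 0.049, *Cox4i2* -0.093 to 0.062, *Cox5a* -0.16 to 0.046, *Cox6a1* -0.32 to 0.012, *Cox6a2* -0.17 to 0.077, *Cox6b1* -0.30 to 0.0033, *Cox6b2* -0.25 to 0.24, *Cox7a1* -0.11 to 0.018, *Cox7a2* -0.36 to 0.027, *Cox7a2l* -0.024 to 0.10, *Cox7b* -0.31 to 0.066, *Cox7c* -0.39 to 0.0074, *Cox8a* -0.19 to 0.12, *Cox8b* -1.66 to -1.13 and *Cox11* -0.20 to 0.029. In complex V they were *Atp5a1* -0.023 to 0.092, *Atp5b* -0.0050 to 0.12, *Atp5c1* -0.19 to 0.069, *Atp5g2* -0.27 to 0.076, *Atp5g3* -0.28 to 0.089 and *Atp5o* -0.43 to 0.021. With 1 array left in a virus, that array was assumed to vary like the others.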
